A study of Mus musculus with 12 samples.

Results

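The genes described here are 33 genes with which a mouse cell makes cholesterol and fatty acids, and 32 of them were measured among 18193 genes on 12 Affymetrix arrays of fibroblasts from mouse embryos (MEFs), a connective tissue cell type. The genes were listed by name, and each was read on its brightest probe set by mean log2 level. They fell into 17 enzymes of the path from acetyl units to cholesterol, 5 genes of its transcriptional control, the sterol carrier Stard4 and 9 genes of fatty acid synthesis. Acat2, the cytosolic thiolase that supplies acetoacetyl-CoA, had no probe set matched to it alone, so no value is given for it.

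The arrays formed 6 groups of 2, which the series' design text names biological replicates. All cells were labelled C57BL/6. The genotypes were wild-type (WT), Stat5-null (KO) and S5, which were Stat5-null cells infected with a retrovirus that brought in STAT5A, a transcription factor of cytokine and growth hormone signalling. Cells of each genotype were taken without stimulation or after 120 minutes of growth hormone (GH). The labels name no KO group with an empty vector, no vehicle for the hormone, no promoter of the vector and no number of clones or embryos, so genotype, infection and cell preparation cannot be told apart. P-values measure the spread between these arrays. Array values are log2 levels and are listed for each genotype in the order untreated replicate 1, untreated replicate 2, hormone replicate 1 and hormone replicate 2.

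Cholesterol is built from acetyl-CoA through mevalonate, isoprenoid diphosphates, squalene and lanosterol, and fatty acids are built from the same acetyl-CoA by carboxylation, chain assembly, elongation and desaturation. Most of these genes are raised by the sterol regulatory element binding proteins (SREBPs), the products of Srebf1 and Srebf2. SCAP escorts SREBPs from the endoplasmic reticulum to the Golgi, where they are cut into active factors, and INSIG proteins hold SCAP back when sterols are plentiful. At their target promoters SREBPs act together with NF-Y, which binds CCAAT boxes, and with Sp1, which binds GC boxes.

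Promoter sequence was shown for a few members to make these elements visible. The RefSeq promoter table (GRCm38.p6) held 35 promoters of 26 of the 33 members, each 300 bases long with 250 bases before the start site. The stretches below are the 250 bases before the start site of the entry enzyme Hmgcs1, of Lss and Cyp51, the members with the smallest adjusted p between KO and WT, and of Elovl6, which carried none of the motifs searched; the short stretch is the part of the Ebp promoter around its STAT motif. Capitals mark TCACNCCAC (core of the sterol regulatory element), CCAAT (NF-Y), CACGTG (E-box), GGGCGG (Sp1) and TTCNNNGAA (STAT), each searched on both strands, so that CCAAT on the other strand reads ATTGG and GGGCGG reads CCGCCC.
Hmgcs1, chr13:119690101-119690350, plus strand: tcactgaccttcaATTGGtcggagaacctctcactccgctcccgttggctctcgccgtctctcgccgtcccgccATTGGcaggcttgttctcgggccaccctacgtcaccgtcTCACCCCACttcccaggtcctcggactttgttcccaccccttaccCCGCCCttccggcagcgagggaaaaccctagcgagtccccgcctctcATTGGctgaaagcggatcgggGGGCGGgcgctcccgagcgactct
Lss, chr10:76531355-76531604, plus strand: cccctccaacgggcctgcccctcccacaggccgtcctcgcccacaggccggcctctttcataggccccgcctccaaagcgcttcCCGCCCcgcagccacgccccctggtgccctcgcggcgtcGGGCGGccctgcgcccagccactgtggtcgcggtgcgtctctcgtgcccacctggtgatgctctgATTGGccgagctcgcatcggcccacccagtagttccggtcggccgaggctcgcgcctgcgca
Cyp51, chr5:4104698-4104947, minus strand: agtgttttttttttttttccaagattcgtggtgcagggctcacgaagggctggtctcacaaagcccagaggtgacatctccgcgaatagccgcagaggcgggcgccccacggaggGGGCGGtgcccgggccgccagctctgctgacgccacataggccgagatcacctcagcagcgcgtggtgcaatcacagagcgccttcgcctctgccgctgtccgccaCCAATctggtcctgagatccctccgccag
Elovl6, chr3:129532136-129532385, plus strand: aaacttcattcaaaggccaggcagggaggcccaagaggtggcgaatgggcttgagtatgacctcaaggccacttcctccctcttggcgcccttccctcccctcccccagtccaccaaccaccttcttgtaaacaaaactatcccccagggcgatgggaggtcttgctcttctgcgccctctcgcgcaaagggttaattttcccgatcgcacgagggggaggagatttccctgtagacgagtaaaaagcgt
Ebp, chrX:8193569-8193617, minus strand: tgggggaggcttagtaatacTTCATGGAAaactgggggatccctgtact

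Over whole promoters, CCAAT was present in 22 of the 35 member promoters (62.9%) against 37.4% of all 32851 promoters in the table. GGGCGG was present in 26 (74.3%) against 35.7%. The E-box CACGTG was present in 6 (17.1%) against 7.15%, in promoters of Hsd17b7, Insig1, Dhcr7, Sc5d and Scap. The sterol element core TCACNCCAC was present in 1 (2.86%, against 1.24%), that of Hmgcs1, at position -137 from the start site. The STAT motif TTCNNNGAA was also present in 1 (2.86%, against 8.3%), that of Ebp, at position -85. These are counts of letters in a fixed window and not of bound sites.

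The arrays were alike in overall level, with array medians of 2.86 to 3.02 and 44.93% to 45.83% of the probe sets of an array above 4. Below 4 the values pile up in a low mode in which differences are compressed, and all 32 measured members lay above it on every array. The probe set that read Stat5a in WT MEFs stood at 11.51, 11.45, 12.11 and 12.39 there and between 2.34 and 2.47 on KO and S5 arrays, and the highest Stat5b probe set stood at 8.98 to 9.39 in WT and 1.93 to 2.01 elsewhere. A second Stat5a probe set stood at 9.86, 9.9, 9.04 and 9.14 in S5 MEFs and between 2.19 and 2.38 in the others. The Gapdh 3′ minus 5′ control difference, which reflects how long the labelled RNA is, was 1.44 to 1.62 on S5 arrays against 0.89 to 1.22 on WT and 0.94 to 1.11 on KO arrays.

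The comparison of KO with WT MEFs asked how the pathway stands in cells without STAT5, with the treated and untreated arrays of a genotype in 1 group (4 against 4). Transcripts of every measured sterol enzyme were lower in KO MEFs: 17 of 17 passed the threshold, with a median log2 difference of -1.69. Of the 9 fatty acid genes 8 were lower, with a median of -0.51. In the control system Srebf2, Srebf1 and Insig1 were lower while Scap and Insig2 were higher. In all, 29 of the 32 members were lower and 2 higher by limma at an adjusted p under 0.05, whereas 38.2% of all 18193 genes passed, 17.2% lower and 21% higher. Among genes with mean levels in the range of the members, 57.5% passed, 23.2% lower and 34.3% higher. The KO arrays did not overlap with the WT arrays in 27 lower members (14.9% of all genes) and 2 higher ones (17.3%). The median over the members was -1.19, against 0.0 over all genes. With bulk RNA, fewer cells of a type and less RNA per cell cannot be told apart.

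**Figure D1:**
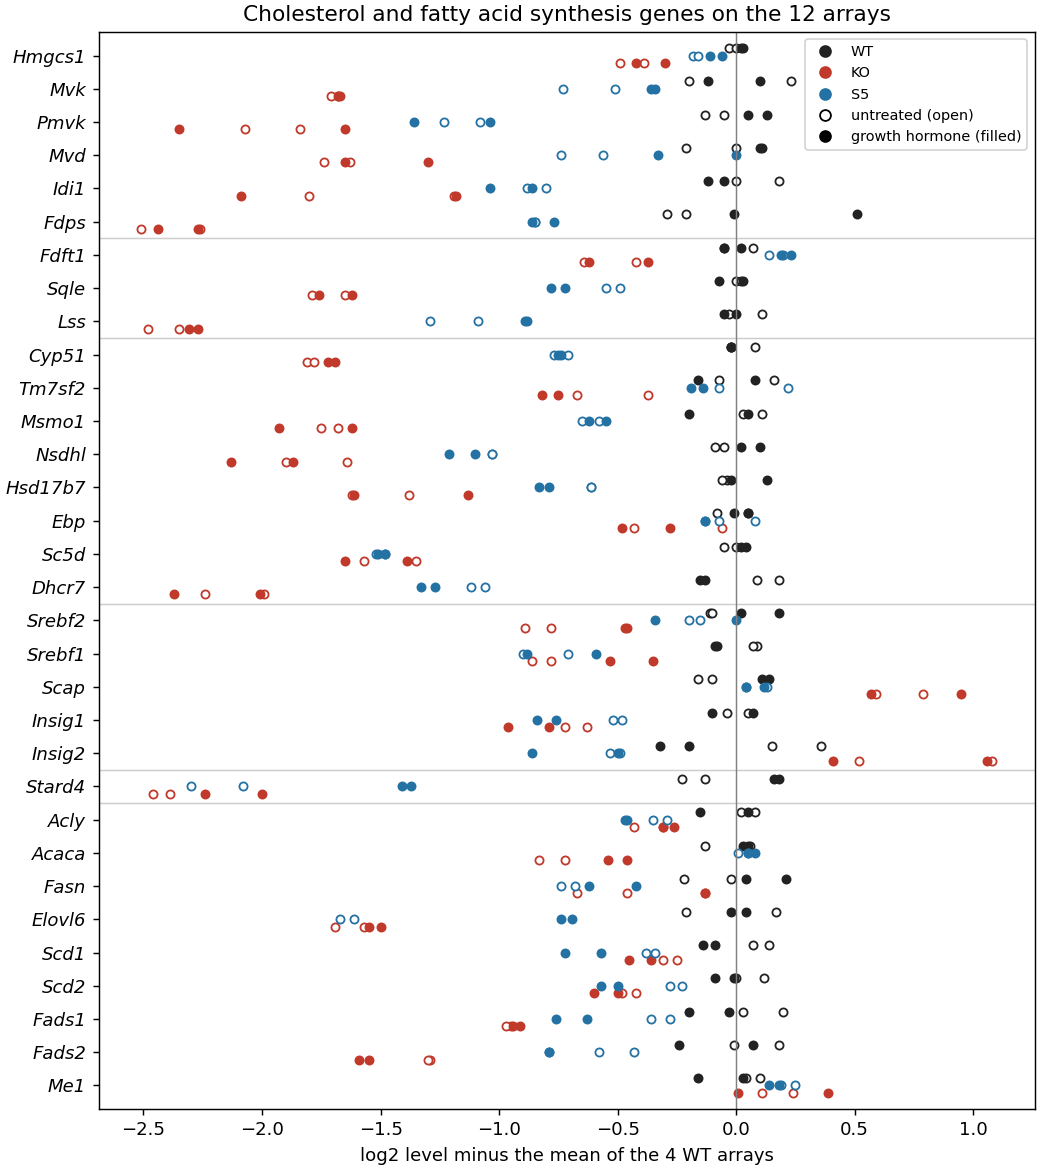
The plot shows, for each of the 32 measured members (rows, grouped by role), the log2 level on each of the 12 arrays minus the mean of the 4 WT arrays. KO arrays (red) lie to the left of the WT arrays (black) for 16 of the 17 sterol enzymes, with overlap in Ebp. S5 arrays (blue) lie between them for 12 of the 17, and Scap and Insig2 lie to the right in KO.

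The mevalonate branch turns acetyl-CoA into isoprenoid diphosphates. Its entry enzyme Hmgcs1, HMG-CoA synthase, stood at 14.08, 14.11, 14.14 and 14.13 in WT, at 13.72, 13.62, 13.69 and 13.81 in KO and at 13.93, 13.95, 14.05 and 14 in S5 MEFs. The KO arrays were the lowest and did not overlap with either other genotype, but the difference was small on this bright probe set (log2 difference -0.4, SE 0.04, adjusted p = 0.000117). Mvk, mevalonate kinase, stood at 8.56, 8.13, 8.21 and 8.43 in WT, at 6.65, 6.62, 6.65 and 6.66 in KO and at 7.82, 7.6, 7.97 and 7.99 in S5 MEFs. It was 3.23-fold lower in KO than in WT (log2 difference -1.69, SE 0.1, adjusted p = 1.34e-05), with the KO arrays within a narrow band. Pmvk, the kinase of the next step, stood at 10.35, 10.27, 10.45 and 10.53 in WT, at 8.33, 8.56, 8.05 and 8.75 in KO and at 9.32, 9.17, 9.36 and 9.04 in S5 MEFs. KO levels were 3.93-fold below WT (log2 difference -1.98, SE 0.15, adjusted p = 5.07e-05), and all 4 KO arrays lay below the lowest S5 array. For Mvd, the decarboxylase that yields isopentenyl diphosphate, the levels were 10.84, 10.63, 10.95 and 10.94 in WT, at 9.1, 9.21, 9.54 and 9.19 in KO and at 10.28, 10.1, 10.84 and 10.51 in S5 MEFs. Here WT and S5 arrays overlapped while KO arrays lay below both, 2.99-fold under WT (log2 difference -1.58, SE 0.11, adjusted p = 2.65e-05).

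Idi1, the isomerase of isopentenyl diphosphate, stood at 13.39, 13.57, 13.34 and 13.27 in WT, at 11.59, 12.2, 12.21 and 11.3 in KO and at 12.51, 12.59, 12.35 and 12.53 in S5 MEFs. The KO arrays of this gene were the most spread of any member, with an SD of 0.45 over 4 arrays, and lay below WT (log2 difference -1.57, SE 0.21, adjusted p = 0.000787). Fdps, farnesyl diphosphate synthase at the branch point to sterols, stood at 11.39, 11.31, 11.59 and 12.11 in WT, at 9.34, 9.09, 9.16 and 9.33 in KO and at 10.75, 10.75, 10.83 and 10.74 in S5 MEFs. On the brightest probe sets this was the largest difference among the members, 5.17-fold lower in KO (log2 difference -2.37, SE 0.12, adjusted p = 4.95e-06), with all KO arrays below all others. Dimmer probe sets of some members differed more, such as 1 of Stard4 (-3.01).

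The next 3 enzymes make squalene and turn it into lanosterol. Fdft1, squalene synthase, stood at 12.84, 12.72, 12.72 and 12.79 in WT, at 12.35, 12.13, 12.15 and 12.4 in KO and at 12.97, 12.91, 13 and 12.96 in S5 MEFs. Only KO stood apart on the low side (log2 difference -0.51, SE 0.07, adjusted p = 0.000971), while the S5 arrays lay above every WT array. Sqle, squalene epoxidase, a controlled step of the pathway, stood at 12.83, 12.85, 12.86 and 12.76 in WT, at 11.18, 11.04, 11.21 and 11.07 in KO and at 12.34, 12.28, 12.11 and 12.05 in S5 MEFs. KO was 3.25-fold below WT (log2 difference -1.7, SE 0.05, adjusted p = 3.6e-07), and the 3 genotypes did not overlap. Lss, lanosterol synthase, stood at 12.84, 12.7, 12.68 and 12.73 in WT, at 10.25, 10.38, 10.42 and 10.46 in KO and at 11.64, 11.44, 11.84 and 11.85 in S5 MEFs. Its KO level was 5.12-fold below WT (log2 difference -2.36, SE 0.06, adjusted p = 1.51e-07), again without overlap between any genotypes.

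The last 8 enzymes convert lanosterol to cholesterol. Cyp51, the lanosterol demethylase, stood at 13.98, 13.88, 13.88 and 13.88 in WT, at 12.09, 12.12, 12.18 and 12.21 in KO and at 13.19, 13.13, 13.15 and 13.16 in S5 MEFs. With the smallest standard error of all members it was 3.37-fold lower in KO (log2 difference -1.75, SE 0.03, adjusted p = 2.92e-08). Tm7sf2, a sterol reductase, stood at 9.86, 9.63, 9.54 and 9.78 in WT, at 9.33, 9.03, 8.88 and 8.95 in KO and at 9.92, 9.63, 9.51 and 9.56 in S5 MEFs. KO arrays were below all WT arrays by a smaller margin (log2 difference -0.65, SE 0.1, adjusted p = 0.00175), and WT and S5 arrays overlapped.

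Msmo1, Nsdhl and Hsd17b7 remove the methyl groups of the sterol nucleus. Msmo1 stood at 13.04, 13.12, 12.81 and 13.06 in WT, at 11.26, 11.33, 11.39 and 11.08 in KO and at 12.43, 12.36, 12.46 and 12.39 in S5 MEFs. Nsdhl was found at 11.88, 11.92, 12.07 and 11.99 in WT, at 10.33, 10.07, 10.1 and 9.84 in KO and at 10.94, 10.94, 10.87 and 10.76 in S5 MEFs. Hsd17b7 lay at 12.87, 12.85, 13.04 and 12.89 in WT, at 11.53, 11.29, 11.3 and 11.78 in KO and at 12.3, 12.3, 12.12 and 12.08 in S5 MEFs. In each of them KO was lowest, S5 intermediate and WT highest without overlap. The KO minus WT difference was -1.75 (SE 0.08, adjusted p = 4.07e-06) for Msmo1, -1.88 (SE 0.08, adjusted p = 2.07e-06) for Nsdhl and -1.44 (SE 0.11, adjusted p = 3.93e-05) for Hsd17b7.

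Ebp, the sterol isomerase, stood at 11.2, 11.07, 11.14 and 11.2 in WT, at 11.09, 10.72, 10.67 and 10.87 in KO and at 11.23, 11.08, 11.02 and 11.02 in S5 MEFs. On the brightest probe sets Ebp had the smallest difference of the 17 enzymes (log2 difference -0.31, SE 0.09, adjusted p = 0.0275), and its arrays overlapped between all genotypes, with a KO array at 11.09. This call was lost without WT replicate 1 (adjusted p = 0.0865), WT with hormone replicate 1 (0.0589) or 2 (0.0792) or KO with hormone replicate 1 (0.083), with either treatment alone, in a fit of only these groups and with arrays centred on their median. Sc5d, a sterol desaturase, stood at 12.02, 11.97, 12.04 and 12.06 in WT, at 10.67, 10.45, 10.37 and 10.63 in KO and at 10.54, 10.5, 10.54 and 10.51 in S5 MEFs. KO and S5 arrays overlapped well below WT (log2 difference -1.49, SE 0.07, adjusted p = 3.54e-06). Dhcr7, a reductase that finishes cholesterol, stood at 12.62, 12.71, 12.4 and 12.38 in WT, at 10.54, 10.29, 10.16 and 10.52 in KO and at 11.47, 11.41, 11.26 and 11.2 in S5 MEFs. KO was 4.44-fold below WT (log2 difference -2.15, SE 0.09, adjusted p = 2.01e-06), and S5 lay between without overlap.

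The genes of the control system did not move as a block. Srebf2, the SREBP that mainly drives sterol synthesis, stood at 10.16, 10.17, 10.29 and 10.45 in WT, at 9.38, 9.49, 9.8 and 9.81 in KO and at 10.07, 10.12, 9.93 and 10.27 in S5 MEFs. All KO arrays were below the others (log2 difference -0.65, SE 0.08, adjusted p = 0.000379). Srebf1, the SREBP that mainly drives fatty acid synthesis, stood at 10.1, 10.08, 9.93 and 9.92 in WT, at 9.23, 9.15, 9.66 and 9.48 in KO and at 9.11, 9.3, 9.13 and 9.42 in S5 MEFs. KO and S5 arrays overlapped below WT (log2 difference -0.63, SE 0.08, adjusted p = 0.000487). Insig1, an SREBP target that retains SCAP, stood at 14.06, 14.15, 14.17 and 14 in WT, at 13.38, 13.47, 13.31 and 13.14 in KO and at 13.62, 13.58, 13.34 and 13.26 in S5 MEFs, again with KO and S5 below WT (log2 difference -0.77, SE 0.06, adjusted p = 4.22e-05).

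Scap, the escort of SREBPs, ran the other way at 10.56, 10.62, 10.83 and 10.86 in WT, at 11.51, 11.31, 11.29 and 11.67 in KO and at 10.85, 10.76, 10.84 and 10.76 in S5 MEFs. It was 1.66-fold higher in KO (log2 difference 0.73, SE 0.09, adjusted p = 0.000403), with every KO array above every WT and S5 array. Insig2, the second retention protein, stood at 11.04, 11.25, 10.57 and 10.69 in WT, at 11.41, 11.97, 11.95 and 11.3 in KO and at 10.4, 10.36, 10.03 and 10.39 in S5 MEFs. KO arrays were the highest and S5 arrays the lowest, and KO was 1.71-fold above WT (log2 difference 0.77, SE 0.18, adjusted p = 0.0117), a call lost on untreated arrays alone (0.54, adjusted p = 0.182). Stard4, a carrier that moves cholesterol between membranes, stood at 11.05, 10.95, 11.34 and 11.36 in WT, at 8.72, 8.79, 8.94 and 9.18 in KO and at 9.1, 8.88, 9.81 and 9.77 in S5 MEFs. It was among the largest differences, 4.82-fold lower in KO (log2 difference -2.27, SE 0.07, adjusted p = 4.14e-07).

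Of the fatty acid genes, those that build the chain are given first. Acly, which makes cytosolic acetyl-CoA from citrate, stood at 14.5, 14.56, 14.53 and 14.33 in WT, at 14.05, 14.17, 14.22 and 14.17 in KO and at 14.13, 14.19, 14.01 and 14.02 in S5 MEFs, slightly lower in KO (log2 difference -0.33, SE 0.05, adjusted p = 0.00155). Acaca, acetyl-CoA carboxylase, stood at 11.07, 10.88, 11.06 and 11.04 in WT, at 10.29, 10.18, 10.47 and 10.55 in KO and at 11.06, 11.02, 11.09 and 11.06 in S5 MEFs, with KO alone below WT (log2 difference -0.64, SE 0.05, adjusted p = 4.23e-05). Fasn, the fatty acid synthase itself, stood at 11.71, 11.51, 11.77 and 11.94 in WT, at 11.27, 11.06, 11.6 and 11.6 in KO and at 11.05, 10.99, 11.31 and 11.11 in S5 MEFs. Treated KO arrays overlapped with untreated WT arrays here (log2 difference -0.35, SE 0.08, adjusted p = 0.00824), and on treated arrays alone the call was lost (-0.26, adjusted p = 0.13). On these probe sets the differences of the 3 genes lay between -0.64 and -0.33, while other Acly probe sets gave -0.46 and -0.89 (adjusted p = 0.00377 and 0.00213 over all probe sets).

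Larger differences on the brightest probe sets were found in elongation and polyunsaturated desaturation. Elovl6, which elongates palmitate, stood at 13.08, 12.7, 12.95 and 12.89 in WT, at 11.22, 11.34, 11.41 and 11.36 in KO and at 11.3, 11.24, 12.22 and 12.17 in S5 MEFs. It was 2.98-fold lower in KO (log2 difference -1.58, SE 0.08, adjusted p = 6.01e-06). Fads2, the desaturase that begins polyunsaturated fatty acid synthesis, stood at 11.66, 11.85, 11.43 and 11.74 in WT, at 10.38, 10.37, 10.08 and 10.12 in KO and at 11.24, 11.09, 10.88 and 10.88 in S5 MEFs, and KO was 2.7-fold lower (log2 difference -1.43, SE 0.08, adjusted p = 7.55e-06). Fads1, its partner desaturase, stood at 12.7, 12.53, 12.3 and 12.47 in WT, at 11.55, 11.53, 11.56 and 11.59 in KO and at 12.22, 12.14, 11.87 and 11.74 in S5 MEFs, with a tight KO group below all others (log2 difference -0.94, SE 0.06, adjusted p = 1.31e-05).

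The stearoyl-CoA desaturases, which make monounsaturated fatty acids, differed less on their brightest probe sets. Scd1 stood at 14.08, 14.15, 13.92 and 13.87 in WT, at 13.7, 13.76, 13.65 and 13.56 in KO and at 13.67, 13.63, 13.29 and 13.44 in S5 MEFs (log2 difference -0.34, SE 0.04, adjusted p = 0.000581). Scd2 stood at 13.99, 14.11, 13.98 and 13.9 in WT, at 13.51, 13.57, 13.49 and 13.39 in KO and at 13.76, 13.71, 13.49 and 13.42 in S5 MEFs (log2 difference -0.51, SE 0.04, adjusted p = 6.69e-05). Both were lower on all KO than on all WT arrays. Me1, malic enzyme, which supplies NADPH for the pathway, was the only member that did not pass in this comparison, with 12.39 to 12.65 in WT, 12.56 to 12.94 in KO and 12.69 to 12.8 in S5 MEFs (log2 difference 0.18, SE 0.09, adjusted p = 0.146). It passed as higher in KO without KO with hormone replicate 2 (0.28, adjusted p = 0.0115) and when its probe sets were averaged (0.29, adjusted p = 0.00507). When each array was centred on the median of its probe sets with a single gene, the KO minus WT values of all genes moved by 0.18 and the S5 minus WT values by 0.27. On that scale 75.9% of all genes passed in KO minus WT. The KO minus WT calls of Ebp (-0.13), Acly (-0.15), Fasn (-0.17) and Scd1 (-0.16) were lost there, and no member reversed.

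**Figure D2:**
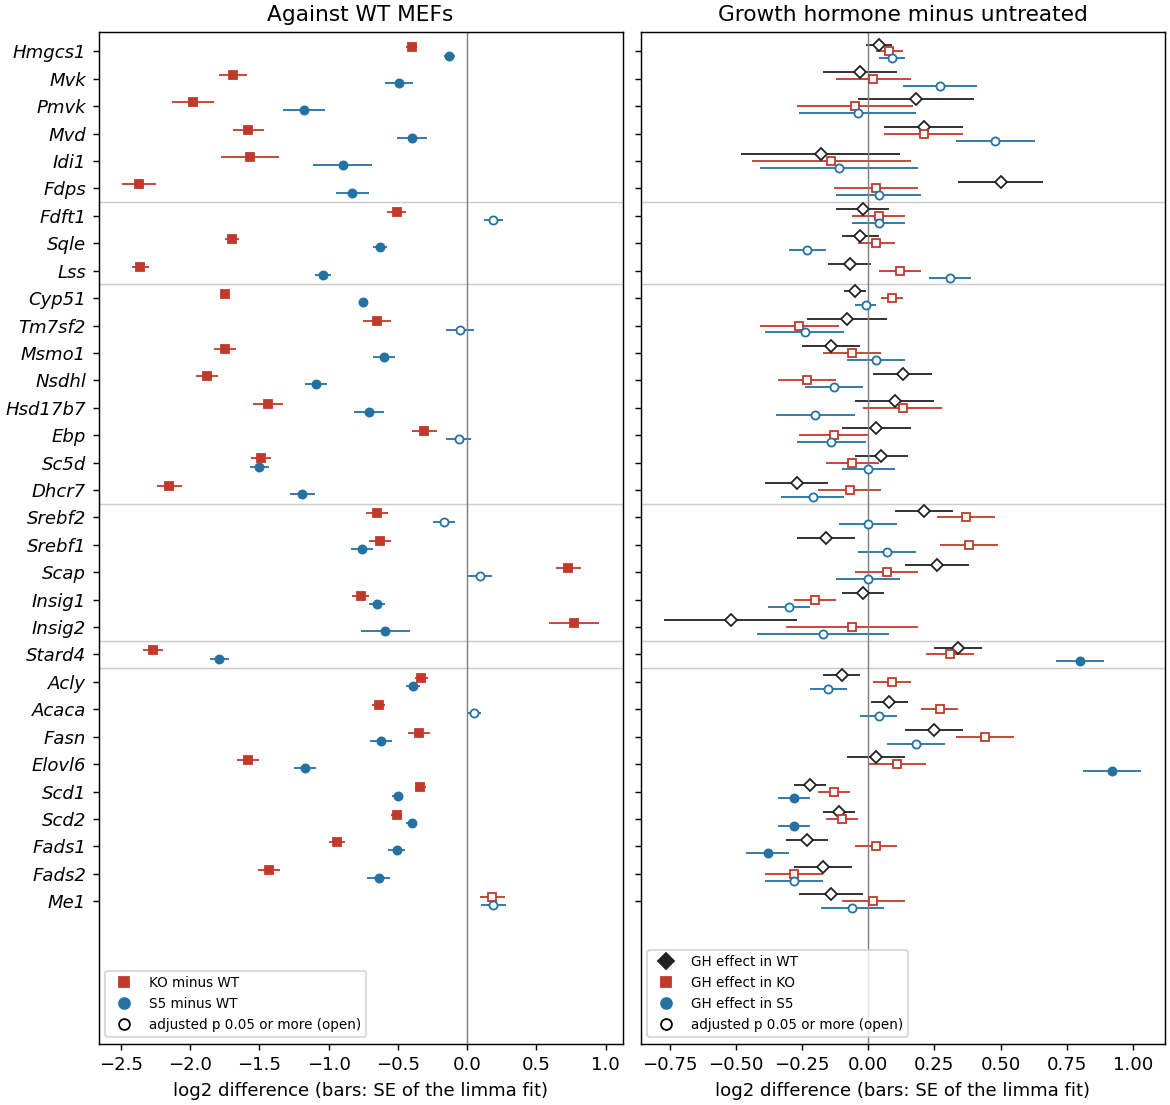
The left panel shows the log2 differences of KO and of S5 from WT MEFs, the right panel the growth hormone minus untreated difference in each genotype, for the 32 measured members, with SE bars of the limma fit and open symbols where the adjusted p was 0.05 or more. On the left, KO differences reach -2.37 while S5 differences are mostly smaller; on the right only 5 filled symbols appear, all of S5 MEFs.

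Because a gene was read on its brightest probe set, the other probe sets were set beside it. For 20 members 2 or more probe sets had means at or above 4, 50 in all. In 20 of 20 these members every such probe set gave KO minus WT the same sign, and in 17 another probe set gave the larger difference. Hmgcs1 differed by -0.4 on its brightest probe set and by -0.8, -0.93, -1.44 and -1.73 on the others. Scd1 differed by -0.34 and -1.69, and Scd2 by -0.51, -0.97 and -1.1. The small differences of these 3 genes are thus those of their brightest probe sets. Sc5d was the reverse, with -1.49 on the brightest and -0.18 on another (adjusted p = 0.47 over all probe sets).

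**Figure D3:**
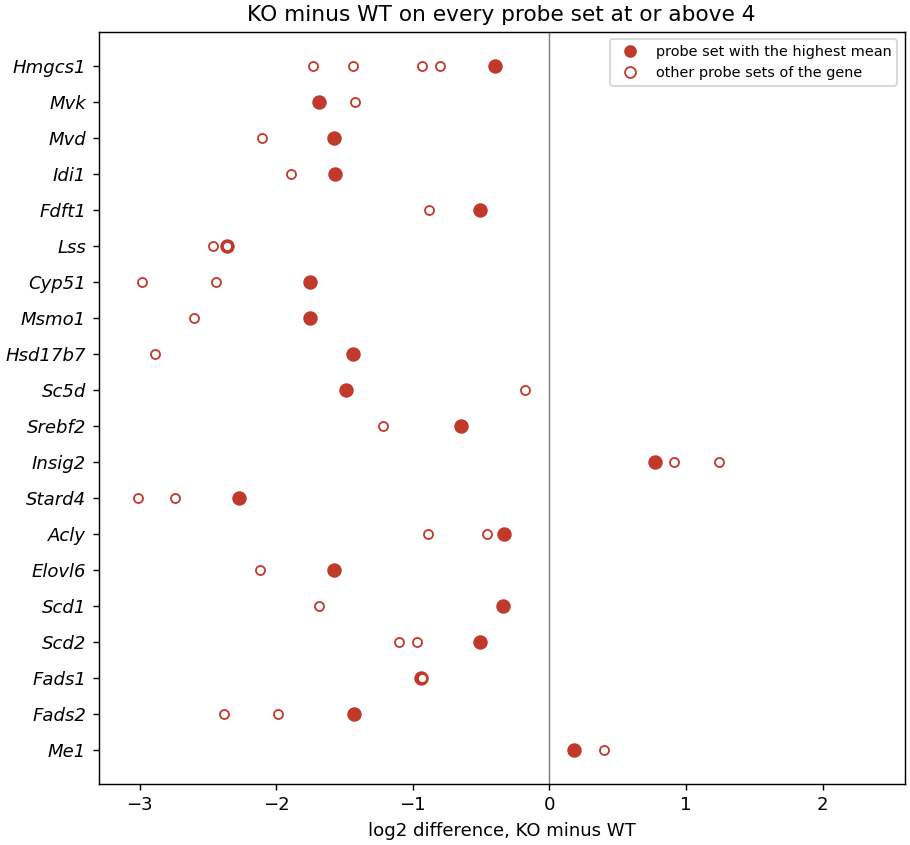
The plot gives the KO minus WT log2 difference of each of the 50 probe sets with a mean at or above 4, for the 20 members with more than 1 such probe set. Filled points are the probe sets used for the gene; in 17 genes an open point lies farther from 0, and no gene has points on both sides of 0.

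The comparison of S5 with KO MEFs asked whether Stat5-null cells that received STAT5A differ from Stat5-null cells that did not. Sterol enzymes were higher in S5 for 15 of 17, with a median log2 difference of 0.8, and Scap and Insig2, the control genes that were higher in KO than in WT, were lower. Over the 32 members, 21 were higher and 4 lower, whereas 37.2% of all genes passed, 20.3% higher and 16.9% lower. Among genes in the level range of the members 56.9% passed, 31.1% higher and 25.8% lower. The comparison shares the KO arrays with that of KO with WT, so the directions of the 2 comparisons are not independent.

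The mevalonate branch was higher in S5 throughout. Fdps differed by 1.54 (SE 0.12, adjusted p = 3.35e-05), Mvk by 1.2 (SE 0.1, adjusted p = 6.01e-05) and Mvd by 1.17 (SE 0.11, adjusted p = 9.89e-05). Smaller differences were found for Pmvk (log2 difference 0.8, SE 0.15, adjusted p = 0.00474), Idi1 (log2 difference 0.67, SE 0.21, adjusted p = 0.0413) and Hmgcs1 (log2 difference 0.27, SE 0.04, adjusted p = 0.000836). The call of Idi1 did not hold when any 1 array was left out, except KO replicate 2 or KO with hormone replicate 1 (adjusted p between 0.0608 and 0.114), nor with either treatment alone, with quantile normalization, with values below 4 set to 4, with a replicate block or in a fit of only these groups. This applies to the brightest Idi1 probe set. Another Idi1 probe set, with a mean of 12.4, gave 1.11 (adjusted p = 5.68e-05 by limma over all probe sets). From squalene to lanosterol, Lss was 2.48-fold higher (log2 difference 1.31, SE 0.06, adjusted p = 1.55e-06), Sqle 2.1-fold (log2 difference 1.07, SE 0.05, adjusted p = 2.03e-06) and Fdft1 1.63-fold (log2 difference 0.7, SE 0.07, adjusted p = 0.000174).

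Of the 8 enzymes past lanosterol 6 were higher in S5. Msmo1 differed by 1.15 (SE 0.08, adjusted p = 2.39e-05) and Cyp51 by 1.0 (SE 0.03, adjusted p = 2.37e-07). For Dhcr7 the difference was 0.96 (SE 0.09, adjusted p = 9.08e-05), for Nsdhl 0.79 (SE 0.08, adjusted p = 0.000125), for Hsd17b7 0.72 (SE 0.11, adjusted p = 0.00123) and for Tm7sf2 0.61 (SE 0.1, adjusted p = 0.00253). Sc5d did not differ detectably, with S5 and KO means of 10.52 ± 0.02 and 10.53 ± 0.14 (SD, n = 4; log2 difference -0.01, SE 0.07, adjusted p = 0.941). Ebp did not pass (log2 difference 0.25, SE 0.09, adjusted p = 0.065) but did without KO replicate 1 (0.34, adjusted p = 0.00966).

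In the control system Srebf2 was higher in S5 (log2 difference 0.48, SE 0.08, adjusted p = 0.00175), a call that treated arrays alone did not give (0.29, adjusted p = 0.0834). Srebf1 (log2 difference -0.14, SE 0.08, adjusted p = 0.223) and Insig1 (log2 difference 0.13, SE 0.06, adjusted p = 0.145) did not pass. Scap was 1.56-fold lower (log2 difference -0.64, SE 0.09, adjusted p = 0.000737) and Insig2 2.58-fold lower (log2 difference -1.36, SE 0.18, adjusted p = 0.000699), without overlap between arrays. Lower S5 arrays without overlap were found in 16.7% of all genes. Stard4 was higher by 0.48 (SE 0.07, adjusted p = 0.000847). Its untreated arrays alone gave 0.24 (adjusted p = 0.116), and its averaged probe sets 0.2 (adjusted p = 0.162).

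Fatty acid genes were mixed. Fads2 (log2 difference 0.79, SE 0.08, adjusted p = 0.000131), Acaca (log2 difference 0.69, SE 0.05, adjusted p = 2.31e-05), Fads1 (log2 difference 0.44, SE 0.06, adjusted p = 0.00058) and Elovl6 (log2 difference 0.4, SE 0.08, adjusted p = 0.00545) were higher in S5. For Elovl6 the value depended on treatment: untreated S5 and KO arrays stood at 11.3 and 11.24 and 11.22 and 11.34 (log2 difference -0.0047, adjusted p = 0.985), treated arrays at 12.22 and 12.17 and 11.41 and 11.36. The call of Fads1 was lost on treated arrays alone (0.23, adjusted p = 0.0678). Fasn (log2 difference -0.26, SE 0.08, adjusted p = 0.03) and Scd1 (log2 difference -0.16, SE 0.04, adjusted p = 0.0209) were lower. Fasn lost its call without KO replicate 1, KO with hormone replicate 1 or 2, S5 replicate 1 or 2 or S5 with hormone replicate 2 (adjusted p from 0.0628 to 0.0928), and on untreated arrays alone (-0.14, adjusted p = 0.462). Scd1 lost its call without KO replicate 2, KO with hormone replicate 1, S5 replicate 2 or S5 with hormone replicate 1 (0.0569 to 0.0697), and on untreated arrays alone (-0.08, adjusted p = 0.418). Acly (-0.06), Scd2 (0.11) and Me1 (0.0) did not pass.

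Against WT, S5 MEFs were lower in 25 of 32 members and higher in none, whereas 44.8% of all genes passed, 20.1% lower and 24.7% higher. Among genes in the members' range 66.2% passed, 27.3% lower and 38.9% higher. After centring each array on the median of its probe sets with a single gene, the split was 19 lower and 6 higher, the latter being Hmgcs1, Fdft1, Ebp, Scap, Acaca and Me1. On that scale 82.7% of all genes passed. The largest differences on the brightest probe sets were those of Stard4 (log2 difference -1.79, SE 0.07, adjusted p = 7.43e-07), Sc5d (log2 difference -1.5, SE 0.07, adjusted p = 1.97e-06), Dhcr7 (log2 difference -1.19, SE 0.09, adjusted p = 2.23e-05) and Pmvk (log2 difference -1.18, SE 0.15, adjusted p = 0.000498). Another Sc5d probe set gave -0.25 (adjusted p = 0.227 over all probe sets). Elovl6 differed by -1.17, Nsdhl by -1.09 and Lss by -1.04. Smaller differences were those of Fdps (-0.83), Cyp51 (-0.75), Sqle (-0.63), Msmo1 (-0.6), Hsd17b7 (-0.71), Mvk (-0.49) and Mvd (-0.4). Of the genes from Stard4 to Mvd, all but Sc5d (-1.5, against -1.49 for KO) differed less from WT than KO did. Of the 20 members with 2 or more probe sets at or above 4, 18 had 1 sign on all of them. Msmo1 and Fads1 did not, and in 15 of the 20 another probe set gave the larger difference.

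Of the control and fatty acid genes, S5 was lower than WT in Srebf1 (-0.76), Insig1 (-0.65), Insig2 (-0.59), Fasn (-0.62), Fads2 (-0.64), Fads1 (-0.51), Scd1 (-0.5), Scd2 (-0.4) and Acly (-0.39). Idi1 (-0.9) and Hmgcs1 (-0.13) were lower too. The remaining members did not pass, with values of 0.19 (SE 0.07, adjusted p = 0.0658) for Fdft1, -0.05 (SE 0.1, adjusted p = 0.727) for Tm7sf2, -0.06 (SE 0.09, adjusted p = 0.594) for Ebp, -0.17 (SE 0.08, adjusted p = 0.114) for Srebf2, 0.09 (SE 0.09, adjusted p = 0.45) for Scap, 0.05 (SE 0.05, adjusted p = 0.473) for Acaca and 0.19 (SE 0.09, adjusted p = 0.122) for Me1. Fdft1 and Me1 arrays of S5 nevertheless all lay above those of WT, as in 20.6% of all genes. Srebf2 passed as lower without S5 with hormone replicate 2 (-0.25, adjusted p = 0.00697), and Me1 as higher without KO with hormone replicate 1 or 2 (0.19, adjusted p = 0.027 each). Single arrays ended 3 lower calls: that of Hmgcs1 was lost without WT replicate 2, WT with hormone replicate 1 or 2, S5 replicate 1 or 2 or S5 with hormone replicate 2 (adjusted p 0.0501 to 0.0739), that of Mvd without WT replicate 1, S5 replicate 2 or S5 with hormone replicate 2 (0.0529 to 0.0605), and that of Insig2 without WT replicate 2, WT with hormone replicate 1 or 2, S5 replicate 1 or 2 or S5 with hormone replicate 1 (0.0617 to 0.0968). After centring on probe sets with a single gene the calls of Mvk (-0.22, adjusted p = 0.0839), Mvd (-0.14, 0.331), Insig2 (-0.33, 0.152), Acly (-0.12, 0.159) and Scd2 (-0.13, 0.105) were lost. On treated arrays alone those of Hmgcs1 (-0.11, adjusted p = 0.168), Mvk (-0.34, 0.109), Mvd (-0.27, 0.247), Idi1 (-0.86, 0.0582) and Insig2 (-0.42, 0.277) were lost, and on untreated arrays alone those of Hmgcs1 (-0.15, 0.0571) and Insig2 (-0.77, 0.0538). With the mean of the probe sets those of Msmo1 (-0.27, adjusted p = 0.215) and Fads1 (-0.06, adjusted p = 0.83) were lost.

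A graded order appeared in the levels themselves. In 14 of the 32 members all WT arrays lay above all S5 arrays and these above all KO arrays, an order found in 1.57% of all genes. They were Hmgcs1, Mvk, Pmvk, Idi1, Fdps, Sqle, Lss, Cyp51, Msmo1, Nsdhl, Hsd17b7, Dhcr7, Fads1 and Fads2, so 12 of the 17 sterol enzymes and 2 of the 9 fatty acid genes. Of the other sterol enzymes, Mvd overlapped between WT and S5, Fdft1 was highest in S5, Tm7sf2 overlapped between WT and S5, Ebp overlapped between all 3, and Sc5d was as low in S5 as in KO. The opposite order was found in 0 members and 0.824% of all genes.

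Other cell features moved with the genotypes. A list of 20 macrophage and leukocyte genes had array means of 8.5, 10.12, 10.03 and 10.04 in WT MEFs, 3.9 to 4.22 in KO and 3.21 to 3.54 in S5, with 18 of 20 lower in KO than in WT and 12 of 20 below 4 on both untreated KO arrays; these calls are read against 17.2% of all genes lower. Untreated WT replicate 1 had the lowest of the WT means in these genes. In S5 against KO 5 genes of this list were lower and 1 higher (16.9% and 20.3% of all genes). The part of these genes in the sterol result was not tested. A list of 11 cell cycle genes had means of 11.32 to 11.44 in WT, 9.75 to 9.97 in KO and 10.14 to 10.45 in S5 MEFs. All 11 were lower in KO, against 23.2% of genes in the members' range. In S5 against KO 4 were higher, 2 lower and 5 did not pass, near the 56.9% called among genes of like level. The median of the list was 0.19. Mki67 was among the higher genes (2.11, SE 0.08, adjusted p = 9.34e-07) and Mcm2 among the lower (-0.93, SE 0.11, adjusted p = 0.000348). The cell cycle array means thus had the same order of genotypes as the sterol enzymes, though genes such as Mcm2 did not. The part of these genes in the sterol result was also not tested.

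Markers of the labelled cell type, 12 fibroblast genes, had means of 13.28 to 13.39 in WT, 12.94 to 13.02 in KO and 11.46 to 11.89 in S5 MEFs. In S5 against KO 1 of these genes was higher, 5 were lower and 6 did not pass, with a median log2 difference of -0.02. Among all genes 20.3% were higher and 16.9% lower. Thy1, a fibroblast surface marker among the lower genes, had group means of 4.31 and 2.88 in S5 against 14.24 and 14.26 in KO. Of 7 adipocyte genes 4 lay below 4 in every group, among them Adipoq and Lep, which define fat cells. Of the 7, 2 were lower in KO than in WT (17.2% of all genes), and in S5 against KO 2 were higher and 1 lower (20.3% and 16.9%). Fabp4, also expressed in macrophages, was lower in KO than in WT (log2 difference -6.21, SE 0.13, adjusted p = 6.94e-08) and higher in S5 than in KO (6.51, SE 0.13, adjusted p = 2.68e-08). In S5, 15 of the 20 macrophage and leukocyte genes lay below 4 on both untreated arrays. Cebpa was lower in KO than in WT (-2.77, SE 0.21, adjusted p = 4.6e-05) and in S5 than in KO (-2.2, SE 0.21, adjusted p = 0.000126). Pparg was higher in S5 than in KO (1.35, SE 0.2, adjusted p = 0.00117). Endothelial and epithelial lists had array means of at most 3.29, and 5 or 6 of their 6 genes lay below 4 in each group. The exceptions were Tek and Krt18. Tek had group means of 6.77 and 4.83 in WT, 3.28 and 3.25 in KO and 9.35 and 9.28 in S5. It was at least 39.8-fold higher in S5 than in KO (adjusted p = 1.58e-06). Krt18 had means of 6.45 and 6.79 in WT, 7.89 and 7.97 in KO and 2.55 and 2.55 in S5. It was at least 15.2-fold lower in S5 than in KO (adjusted p = 2.68e-06).

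**Figure D4:**
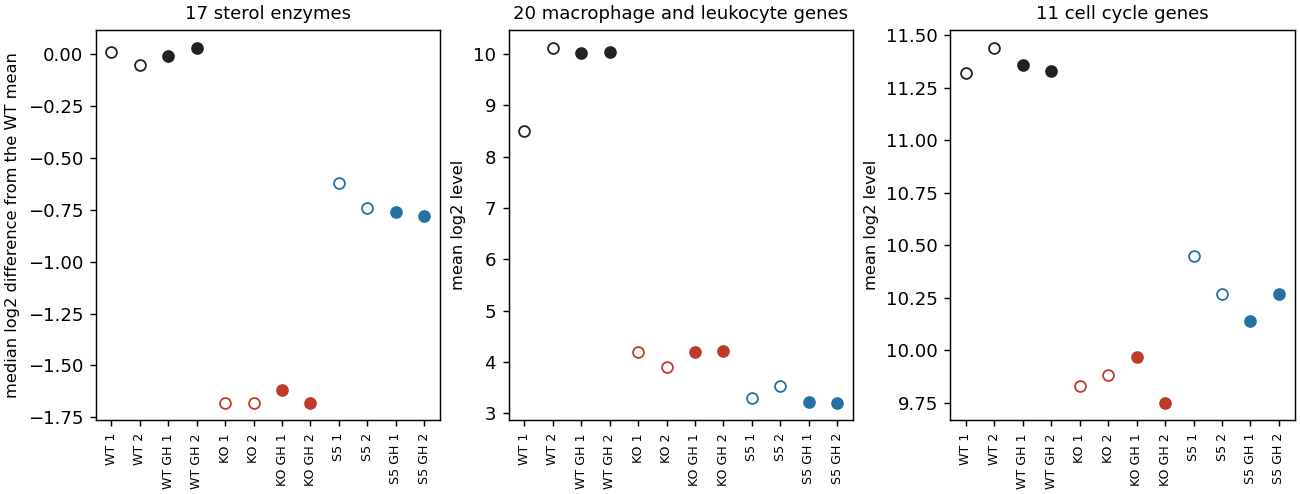
The panels show, for each of the 12 arrays, the median log2 difference of the 17 sterol enzymes from their WT means (left), the mean log2 level of 20 macrophage and leukocyte genes (middle) and of 11 cell cycle genes (right). The sterol enzyme median and the cell cycle mean are highest in WT and lowest in KO, whereas the macrophage mean is lowest in S5.

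Growth hormone asked a different question, which of these genes differ after 120 minutes of hormone and whether that difference varies with genotype. On the brightest probe sets no sterol enzyme passed in any of the 3 genotypes, in their mean or in the 3 differences between genotypes by limma, although at an unadjusted p under 0.05 there were 1 of 17 in WT, 0 in KO, 3 in S5, 3 in the mean and 1 in each difference between genotypes. Among all 18193 genes the unadjusted counts were 3510 in WT, 1800 in KO, 3733 in S5 and 5112 in the mean. They were 1656 for WT minus KO, 1775 for S5 minus KO and 2452 for S5 minus WT. On the same probe sets 0 of 32 members passed in WT MEFs (6% of all genes) and 0 of 32 in KO MEFs (0.308% of all genes). At an unadjusted p under 0.05 there were 4 members in WT, against 3510 of all 18193 genes, and 7 in KO, against 1800. In S5 MEFs 5 members passed, against 7.88% of all genes (3.63% higher and 4.25% lower) and 12.4% of those in the members' range. Stard4 and Elovl6 rose, and Scd1, Scd2 and Fads1 fell. In the mean of the 3 genotypes 7 members passed, against 14.5% of all genes (7.1% higher and 7.44% lower) and 23% of those in the members' range, with Fasn rising and Fads2 falling besides those 5. Both counts are near the shares among genes of like level.

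Stard4 rose in S5 MEFs from 9.1 and 8.88 to 9.81 and 9.77, 1.75-fold (log2 difference 0.8, SE 0.09, adjusted p = 0.00397). Its log2 differences were 0.34 (SE 0.09, adjusted p = 0.0864) in WT, from 11.05 and 10.95 to 11.34 and 11.36, and 0.31 (SE 0.09, adjusted p = 0.299) in KO, from 8.72 and 8.79 to 8.94 and 9.18. Treated arrays lay above untreated arrays in all 3 genotypes, which singly held for 18% of all genes in WT, 13.4% in KO and 19.6% in S5. The mean difference was 0.48 (SE 0.05, adjusted p = 0.00224). The S5 response exceeded that of KO by 0.5 (SE 0.13, adjusted p = 0.191) and that of WT by 0.46 (SE 0.13, adjusted p = 0.155), which did not pass. In a fit of only the S5 groups the S5 call was lost (adjusted p = 0.0615), and with quantile normalization that in WT passed (0.34, adjusted p = 0.0461).

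Elovl6 rose in S5 MEFs from 11.3 and 11.24 to 12.22 and 12.17, 1.89-fold (log2 difference 0.92, SE 0.11, adjusted p = 0.00475). In WT it went from 13.08 and 12.7 to 12.95 and 12.89 (log2 difference 0.03, SE 0.11, adjusted p = 0.896) and in KO from 11.22 and 11.34 to 11.41 and 11.36 (log2 difference 0.11, SE 0.11, adjusted p = 0.938). The treated WT arrays lay between the untreated ones. The S5 response exceeded the WT response by 0.89 (SE 0.16, adjusted p = 0.0321), the 1 member to pass that test, as did 2.92% of all genes, and exceeded the KO response by 0.81 (SE 0.16, adjusted p = 0.0754). The difference from WT passed without either untreated WT array but lost its call without any other single array (adjusted p 0.0526 to 0.109). The difference from KO passed without WT replicate 1 or 2 (adjusted p = 0.0127 each) and in a fit of only those groups (0.0311). A dimmer Elovl6 probe set gave a rise of 1.46 in S5 (adjusted p = 0.000549 over all probe sets), 1.29 more than in WT (0.0064) and 0.94 more than in KO (0.0368). On the brightest probe sets no other member passed a test between genotypes, with 0 in WT against KO (1.27% of all genes) and 0 in S5 against KO (1.13% of all genes). At an unadjusted p under 0.05 the first had 3 members, against 1656 of all 18193 genes, and the second 6, against 1775.

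The desaturases fell. Scd1 in S5 MEFs went from 13.67 and 13.63 to 13.29 and 13.44 (log2 difference -0.28, SE 0.06, adjusted p = 0.0348), Scd2 from 13.76 and 13.71 to 13.49 and 13.42 (log2 difference -0.28, SE 0.06, adjusted p = 0.0321) and Fads1 from 12.22 and 12.14 to 11.87 and 11.74 (log2 difference -0.38, SE 0.08, adjusted p = 0.0316). Each had both treated arrays below both untreated arrays, and for Scd1 and Scd2 this held in WT and KO too. Singly this held for 42.9% of all genes in S5, 41.7% in WT and 12.6% in KO. All 3 calls were lost without S5 replicate 1 (adjusted p 0.156 to 0.158) or 2 (0.104 to 0.129) or S5 with hormone replicate 1 (0.0726 to 0.165), those of Scd2 and Fads1 without S5 with hormone replicate 2 (0.127 and 0.126), that of Scd1 without any 1 WT array (0.0526 to 0.0548) and that of Fads1 without KO replicate 1 or 2 (0.0518 each). None of the 3 passed in a fit of only the S5 groups (adjusted p = 0.145 for Scd1, 0.0787 for Scd2 and 0.0939 for Fads1), with a replicate block (0.0601, 0.0564 and 0.0523) or after centring on probe sets with a single gene (0.156, 0.14 and 0.0501). The mean difference over the genotypes was -0.21 (SE 0.03, adjusted p = 0.00934) for Scd1, -0.16 (SE 0.03, adjusted p = 0.0221) for Scd2, -0.19 (SE 0.05, adjusted p = 0.0341) for Fads1 and -0.25 (SE 0.06, adjusted p = 0.0411) for Fads2. In WT, Scd1 differed by -0.22 (SE 0.06, adjusted p = 0.0826) and Fads1 by -0.23 (SE 0.08, adjusted p = 0.163), and in KO by -0.13 (SE 0.06, adjusted p = 0.587) and 0.03 (SE 0.08, adjusted p = 0.947).

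Fasn rose in the mean of the genotypes by 0.29 (SE 0.06, adjusted p = 0.0239), from 11.71 and 11.51 to 11.77 and 11.94 in WT, from 11.27 and 11.06 to 11.6 and 11.6 in KO and from 11.05 and 10.99 to 11.31 and 11.11 in S5 MEFs. Its difference was 0.25 in WT, 0.44 in KO and 0.18 in S5. Treated arrays were above untreated arrays in each genotype, which singly held for 18% of all genes in WT, 13.4% in KO and 19.6% in S5. The calls in the mean were sensitive to single arrays: that of Fasn was lost without WT or WT with hormone replicate 2, KO or KO with hormone replicate 2, S5 replicate 1 or 2 or S5 with hormone replicate 1 (adjusted p 0.0515 to 0.0686), that of Scd2 without WT with hormone replicate 2, KO replicate 2, S5 replicate 1 or S5 with hormone replicate 2 (0.0517 to 0.0619). That of Fads1 was lost without any 1 array but WT replicate 2, WT with hormone replicate 2 or S5 with hormone replicate 1 (0.0602 to 0.087), and that of Fads2 without any but WT replicate 1 or WT with hormone replicate 1 or 2 (0.0636 to 0.1). Stard4 and Elovl6 kept their calls in the mean under every alternative tried, and Scd1 lost its call there when its probe sets were averaged (-0.11, adjusted p = 0.461).

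**Figure D5:**
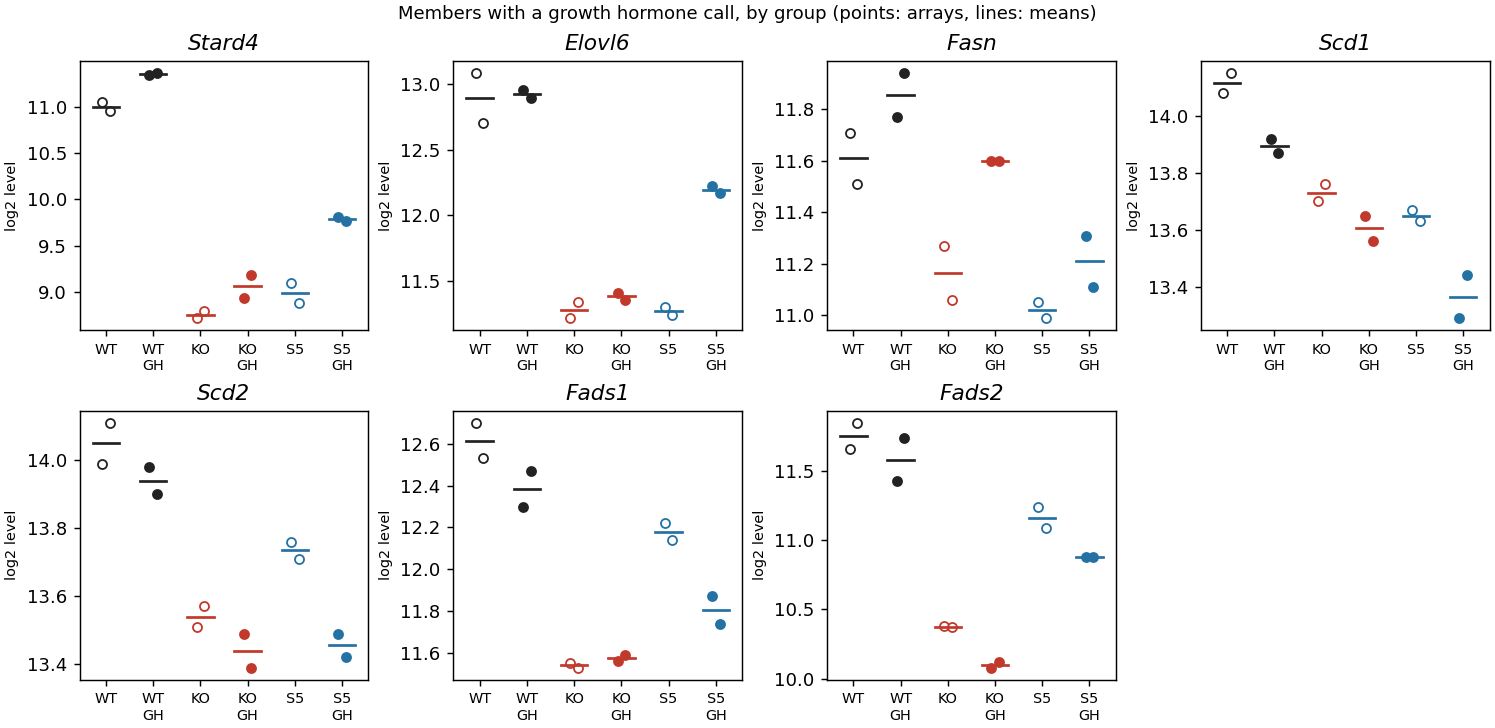
The panels show log2 levels on each array (points) and group means (lines) of the 7 members with a growth hormone call in S5 MEFs or in the mean of the genotypes. Stard4 and Elovl6 rise in S5, Elovl6 to 12.22 and 12.17 from 11.3 and 11.24, whereas Scd1, Scd2 and Fads1 fall there.

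Other probe sets gave hormone calls that the brightest ones did not, with adjusted p over all probe sets. For the sterol enzyme Hsd17b7 a probe set with a mean of 7.32 fell in S5 (-0.95, adjusted p = 0.00467) and in the mean (-0.42, 0.00877), and its S5 response differed from that in WT by -0.97 (0.0289), whereas the brightest gave -0.2 (SE 0.15, adjusted p = 0.6) in S5. For Hmgcs1 a probe set with a mean of 12.19 fell in S5 (-0.41, adjusted p = 0.0064) and differed from WT by -0.66 (0.00686), whereas the brightest gave 0.09 (SE 0.05, adjusted p = 0.44). Mvd rose in the mean on a second probe set (0.58, adjusted p = 0.0303). So 3 sterol enzymes had a hormone call on a dimmer probe set and none on the brightest.

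Among the other members, a Fads2 probe set with a mean of 5.76 fell in WT (-0.93, adjusted p = 0.00105), in S5 (-0.43, 0.0187) and in the mean (-0.43, 0.002), and its WT response differed from that in KO by -1.0 (0.00963). A second Scd2 probe set fell in S5 (-1.0, adjusted p = 0.00447) and in the mean (-0.43, 0.0103) and differed from WT by -0.93 (0.0395). A second Stard4 probe set rose in S5 (1.04, adjusted p = 0.0159). Further probe sets fell for Insig2 in S5 (-0.47, adjusted p = 0.0274) and for Me1 in the mean (-0.2, 0.0309), and the dimmer Elovl6 probe set rose in the mean (0.72, 0.000908). The hormone result of a member thus depended on the probe set read.

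On the brightest probe sets the sterol enzymes with the largest hormone differences were Fdps in WT, 0.5 (SE 0.16, adjusted p = 0.146), and Mvd in S5, 0.48 (SE 0.15, adjusted p = 0.115). Untreated WT arrays stood at 11.39 and 11.31 for Fdps and treated ones at 11.59 and 12.11, and without WT with hormone replicate 1 the difference passed (0.76, adjusted p = 0.0216). In KO MEFs the differences of the control genes Srebf1 (log2 difference 0.38, SE 0.11, adjusted p = 0.264) and Srebf2 (log2 difference 0.37, SE 0.11, adjusted p = 0.269) did not pass. Insig1 in S5 fell short as well (log2 difference -0.3, SE 0.08, adjusted p = 0.0753) and passed with arrays centred on their median (-0.39, adjusted p = 0.021).

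Neighbouring pathways were read from lists of other genes. Their counts are read against all genes, of which 21% were higher and 17.2% lower in KO than in WT (34.3% and 23.2% in the members' range), and 20.3% higher and 16.9% lower in S5 than in KO. Of 12 measured genes of the sterol and prenyl side branches, 1 was lower and 3 higher in KO than in WT. The lower gene was Erg28 (-1.13, SE 0.11, adjusted p = 0.000142), a scaffold of sterol demethylation, and Fnta, a subunit of protein prenyl transferases, was higher (0.53, SE 0.09, adjusted p = 0.00225). In S5 against KO 5 were higher and 4 lower. The 4 of 12 called in KO against WT are near the 38.2% of all genes.

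Of 15 measured genes of SREBP processing and turnover, 5 were higher and 3 lower in KO than in WT. Rnf145, a ubiquitin ligase that acts on SCAP, was higher (0.65, SE 0.04, adjusted p = 1.64e-05), as were Lpin1, which restrains nuclear SREBP (0.78, SE 0.07, adjusted p = 0.000113), and Mbtps1, the first protease of SREBP cleavage (0.39, SE 0.04, adjusted p = 0.000259). In S5 against KO 3 were higher and 5 lower, with Rnf145 lower (-0.45, SE 0.04, adjusted p = 8.86e-05). The 8 of 15 called in each comparison are near the shares among genes of like level, 57.5% and 56.9%. Lpin1 also rose with the hormone in WT (0.68, SE 0.1, adjusted p = 0.0105), and its response in S5 was lower than in WT (-1.07, SE 0.14, adjusted p = 0.0104).

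Of 20 measured genes of cholesterol transport, efflux and the liver X receptors, which sense oxysterols, 9 were higher and 3 lower in KO. Of the receptors themselves, Nr1h2 had no probe set matched to it alone, and Nr1h3 lay below 4 on both arrays of every group. Among all genes 21% were higher and 17.2% lower, and 34.3% and 23.2% in the members' range. Abca1, the cholesterol exporter, was higher (1.12, SE 0.06, adjusted p = 7.08e-06), as were Mylip, a liver X receptor target (1.8, SE 0.16, adjusted p = 8.84e-05), Rxra, the receptor's partner (1.02, SE 0.09, adjusted p = 8.75e-05), and Lrp1, a lipoprotein receptor (0.48, SE 0.04, adjusted p = 0.000123). In S5 against KO 1 was higher and 10 were lower (20.3% and 16.9% of all genes). Abca1 (-1.02, SE 0.06, adjusted p = 8.01e-06) and Mylip (-1.62, SE 0.16, adjusted p = 0.000129) were among the lower genes, together with Ch25h, which makes an oxysterol (at least 199-fold, adjusted p = 4.4e-09), and Abcg1, a second exporter (at least 56.1-fold, adjusted p = 4.91e-08). Ch25h rose with the hormone in WT (1.96, SE 0.17, adjusted p = 0.000938).

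Other genes of fatty acid metabolism gave 2 higher and 8 lower of 24 in KO against WT for synthesis and carbon supply. Acss2, which makes acetyl-CoA from acetate, was lower (-1.4, SE 0.09, adjusted p = 2.45e-05) and higher again in S5 against KO (1.0, SE 0.09, adjusted p = 0.000114), and the elongation genes Hacd1 (-0.92, SE 0.09, adjusted p = 0.000187) and Hacd2 (-0.69, SE 0.09, adjusted p = 0.000769) were lower. Of 16 acyl-CoA ligase and triglyceride genes 6 were higher and 5 lower (21% and 17.2% of all genes), with Acsl3 lower (-1.35, SE 0.12, adjusted p = 0.000112). Of 14 fatty acid oxidation genes 7 were higher and 0 lower, against the same shares of all genes. The higher ones included Cpt1a, which brings fatty acids into mitochondria (0.78, SE 0.15, adjusted p = 0.00442). The 10 of 24 called in the first list are near the 38.2% of all genes. The medians of these 3 lists were -0.11, 0.14 and 0.23, against 0.0 over all genes and -0.51 for the 9 fatty acid synthesis members.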

How the data were processed

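The deposited values of the authors are log2 expression values per probe set on 12 arrays (45101 probe sets, 0.99 to 15.95). GCOS and RMA are named in the submitters' processing notes, without versions; the log base is not stated and was taken from the range of the values. Probe sets were named from the platform annotation: 34945 had 1 gene, 932 had several and were left out. A gene was read on its probe set with the highest mean, which gave 18193 genes. One mean per group was fitted with limma 3.58.1 in R 4.3.3 (lmFit and eBayes, 6 residual and 1.2 prior degrees of freedom), and p-values were adjusted over all genes by Benjamini-Hochberg at 0.05. The contrasts were the growth hormone effect per genotype and in their mean, its differences between genotypes, and the genotypes averaged over treatments. Array number limits the precision. For genes whose group lay in the low mode, a fold is a bound from 4. The fit was tested on simulated data.

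The members and lists were chosen with earlier results of these data known. All 33 members were accounted for, and values per array were printed for those past the threshold in any contrast. Of each other list, up to 4 genes per comparison with the smallest adjusted p could be named. Alternatives were other probe set rules, normalizations, low-value filters, variance models, array weights, a replicate block, single treatments and leaving out each array. Replicate numbers were not shown to pair the samples: deviations of same-numbered arrays correlated between -0.32 and 0.16 over 15 pairs of groups. The lowest value was that of untreated with treated KO arrays, and a pairing across numbers was not tested.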

Additional observations from a re-analysis of the deposited data

Results flagged for a closer look

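The growth hormone response of Elovl6, the elongase of palmitate, differed between S5 and WT MEFs by 0.89 on the log2 scale (adjusted p = 0.0321 by limma for the difference itself). It was singled out because the same treatment gave a different response in 2 genotypes. Both S5 arrays with hormone lay above both untreated S5 arrays, as in 19.6% of all genes, while in WT the treated arrays lay between the untreated ones. The call was lost without any single array other than untreated WT replicate 1 or 2 (adjusted p 0.0526 to 0.109).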

How the results depend on the processing

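Of the called members, 26 of 31 (KO against WT), 18 of 25 (S5 against KO) and 16 of 25 (S5 against WT) kept direction and threshold under every alternative. For the hormone this held for 1 of 5 in S5, 2 of 7 in the mean and 0 of 1 in the S5 minus WT difference. Counts without 1 array were 30 to 32, 22 to 24 and 22 to 27 for the genotypes. They were 0 to 1 for the hormone in WT, 2 to 5 in S5, 3 to 8 in the mean, and 0 to 1 in the S5 minus KO and S5 minus WT differences. For the hormone in WT quantile normalization gave 1 call. In S5 there were 2 after centring on probe sets with 1 gene (an alternative chosen after seeing the data), 3 without genes below 4 in all groups, 1 in a fit of only these groups, 9 with array weights and 3 with the replicate block. The S5 minus KO difference gave 1 call in a fit of only these groups. The S5 minus WT difference gave 3 with the mean of the probe sets, and 0 with either centring, with values below 4 set to 4 or in a fit of only these groups. Elovl6 in S5 against KO reversed on untreated arrays (-0.0047). After the added centring, with which 82.7% of all genes passed, S5 against WT reversed for Hmgcs1 (0.14) and Ebp (0.21) on their brightest probe sets. Before centring the other Hmgcs1 probe sets gave -0.52, -0.62, -0.86 and -0.58. By limma over all probe sets their adjusted p were 0.00426, 0.00391, 2.63e-06 and 0.227. Apart from the arrays left out, the cause was not tested. The replicate block gave 31, 24 and 25 calls for the genotypes and 6 in the mean, and the numbers were not shown to pair the arrays. Duplicates limit every hormone comparison.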
